A study of Homo sapiens with 24 samples.

Results

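H3K27ac was mapped by chromatin immunoprecipitation followed by sequencing (ChIP-seq) in 2 control and 2 TWIST2 knockdown (KD) libraries of RD cells. These are 4 of the 24 samples of the series, and they were taken by their labelled antibody and genotype. RD is a long-established human line from a fusion-negative rhabdomyosarcoma, a childhood sarcoma whose cells look like muscle precursors that stopped maturing. All 4 libraries belonged to the set labelled RD-1, and the groups differed only in the labelled genotype, control or TWIST2 KD. The labels give replicate numbers, but neither the method of knockdown nor whether replicates were separate cultures, so p-values measure the spread between these libraries, which may be technical. Peaks of the 4 lists that shared at least 1 bp were merged into 55905 regions, and each region was scored for presence and summed peak width in every library.

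H3K27ac is an acetyl mark on histone H3, written by the coactivators p300 and CBP, that lies on the nucleosomes beside active promoters and enhancers. Long stretches of the mark form where several active enhancers or a strongly transcribed gene lie close together. TWIST2 is a basic helix-loop-helix factor of mesenchymal cells that can pair with the same E-protein partners as MYOD, the basic helix-loop-helix factor that drives muscle differentiation. The design asks how the active chromatin of the tumour cells differs once TWIST2 is lowered.

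Each peak is recorded by its position alone, without a score or read number, and the sequencing depth is therefore unknown. A region without a peak is one in which no peak was called, not one shown to lack the mark. Positions are in build hg19 (GRCh37), and no gene annotation or sequence of that build was used here. Loci are therefore named by position, and the markers of muscle and of other cell types were not checked. Whether a difference in depth or enrichment between the groups had a part in the results was not tested, and with these lists it cannot be told apart from the knockdown.

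More H3K27ac peaks were called after knockdown, and the excess lay in peaks of moderate width. Peaks of 1000 to under 2000 bp numbered 11907 and 11435 in the control libraries and 17985 and 17303 in the KD libraries. This class rose 1.51-fold, from 11671 ± 333.8 to 17644 ± 482.2 (SD, n = 2 each), and made up 51.4% of the whole excess of peaks. Peaks of 2000 to under 5000 bp numbered 13689 and 13359 in control and 16916 and 16703 in KD, a ratio of 1.24, and gave 28.3% of the excess. The widest class, 10000 bp or more, held 456 and 417 peaks in control and 464 and 432 in KD, so that the groups overlapped. Below that class the 2 KD libraries stood above both controls in every width class. The exact two-sided permutation test gave p = 0.33 for each of those classes and 0.67 for the widest (n = 2 each), and 0.33 is the smallest p that 2 against 2 libraries allow.

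**Figure D1:**
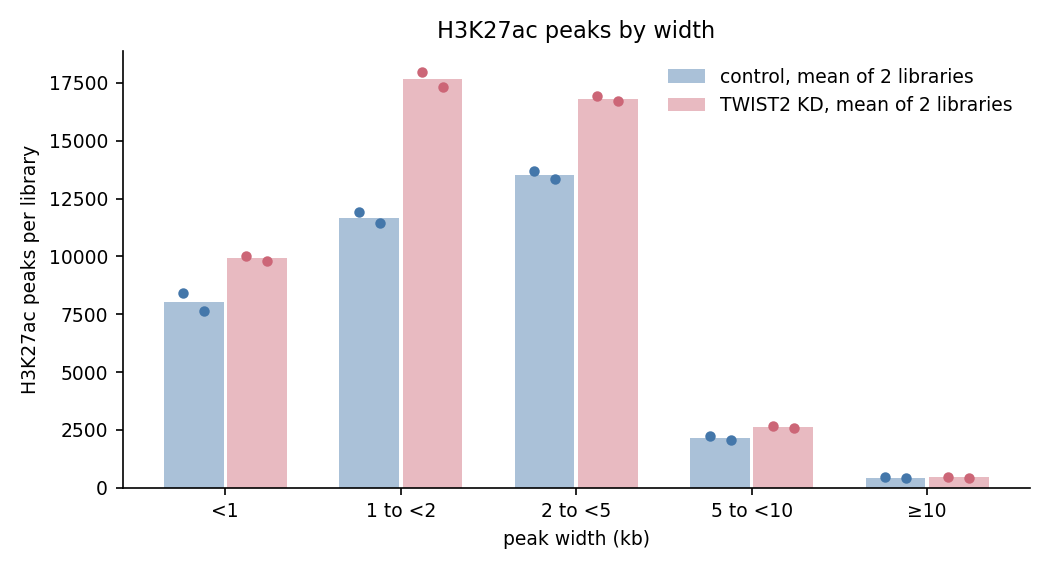
Number of H3K27ac peaks per library (y axis) in 5 classes of peak width in kb (x axis). Bars are means of 2 libraries and points are single libraries. The gap between control and KD is widest at 1 to under 2 kb (11671 against 17644) and closes at 10 kb or more (436.5 against 448).

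Libraries of a group covered much the same bases, and libraries of different groups did not. The bases shared by a pair of libraries, as a share of those covered by either, were 81.7% for both controls and 83.4% for both KD libraries. For the 4 pairs of a control and a KD library the share was 56.6% to 57.4%. The 2 groups therefore differed over more of the covered genome than the replicates did.

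Merged regions fell into 27442 with a peak in all 4 libraries (49.1% of 55905, kept regions), 11079 with a peak in both KD libraries and neither control (19.8%, KD-only) and 2352 with the reverse (4.21%, control-only). The 95% Wilson intervals, which cover counting error only, were 19.5 to 20.2% for KD-only and 4.04 to 4.38% for control-only regions. The remaining 15032 regions had other patterns. The balance of gains and losses moved with the length of the lists: when the same number of the widest peaks was taken from each library, KD-only regions numbered 5969 and control-only regions 5128. With a list cut in that way, a region may hold a called peak that was left out. Without control replicate 1 or 2 the control-only count was 3648 and 4549, since a single library then defined that class.

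Presence differed least in the widest regions. Of merged regions under 1000 bp, 16.8% were KD-only and 6.73% control-only, and 74.0% had other patterns, such as a peak in a single library. Of merged regions of 1000 to under 2000 bp, 36.0% were KD-only and 6.55% control-only. The KD-only share was 10.8% at 2000 to under 5000 bp, 1.69% at 5000 to under 10000 bp and 0.632% (5 of 791) at 10000 bp or more. No region of 10000 bp or more was control-only. Nearly all of the widest regions, 784 of 791, were kept. The merge itself favours this: a region widens by taking in peaks of more libraries, and a wide region meets a peak more easily.

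Gained bases came mainly from places with no control peak and from the growth of kept regions, and they outweighed losses of the same kinds. The KD libraries covered 107.7 and 105.0 Mb and the controls 85.5 and 81.6 Mb, a mean difference of 22.8 Mb. KD-only regions held 16.1 and 15.6 Mb in the KD libraries. Kept regions called wider after knockdown, by the fit described below, covered 14.8 and 14.6 Mb in control and 24.5 and 24.2 Mb in KD, a gain of 9.68 Mb. Kept regions called narrower fell by 5.33 Mb, from 15.0 and 14.6 Mb in control to 9.47 and 9.40 Mb in KD. Control-only regions had held 2.74 and 2.49 Mb. Regions with other patterns of presence held 5.04 and 3.38 Mb in control and 9.10 and 7.85 Mb in KD, a gain of 4.27 Mb. The 17711 kept regions without a call changed by 0.884 Mb in sum, although they held the largest part of the mark (47.3 Mb in control and 48.2 Mb in KD).

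**Figure D2:**
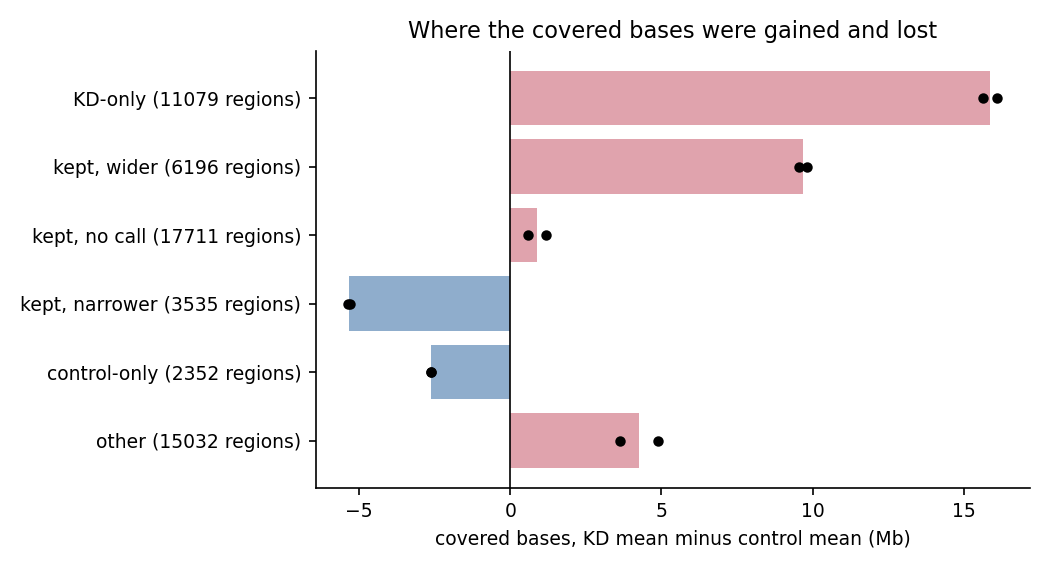
Bases covered by H3K27ac peaks, KD mean minus control mean in Mb (x axis), for each class of merged region (y axis). Bars are differences of means and points are each KD library minus the control mean. KD-only regions (15.9 Mb) and wider kept regions (9.68 Mb) lie on the side of gain, and narrower kept regions (-5.33 Mb) and control-only regions (-2.61 Mb) on the side of loss. Regions with other patterns of presence (4.27 Mb) also lie on the side of gain.

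KD-only regions lay farther from kept regions, at the median, than control-only regions did. Their median edge-to-edge distance to the nearest kept region was 20754 bp, against 10309 bp for control-only regions. Among KD-only regions, 2022 (18.3%) lay within 5000 bp of a kept region and 2955 (26.7%) more than 50000 bp away. Of control-only regions, 32.4% lay within 5000 bp and 13.5% more than 50000 bp away. At the far end, 533 KD-only regions (4.81%) and 46 control-only regions (1.96%) were over 200000 bp from any kept region.

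The 10 widest KD-only regions spanned mean widths of 7293 to 11971 bp over both KD libraries. The widest, chr12:87049664-87062213, had 12550 and 11392 bp in the KD libraries, as 1 and 2 peaks, and held MYOD peaks in both KD libraries (1 and 2) and in neither control. Next to it in width, chr4:157030008-157041192 had 10379 and 11175 bp and lay 4449 bp from a kept region that itself grew after knockdown. That neighbour, chr4:157018736-157025558, had 501 and 631 bp in control and 6698 and 6805 bp in KD. Of these 2 neighbouring gains, one lay where both controls had a narrow peak and the other where neither control had a peak.

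One of the 10 was isolated. The region chr13:65122550-65133507, with 10066 and 10958 bp in the KD libraries, lay 419585 bp from the nearest kept region. It held 1 and 2 MYOD peaks in KD, none in control, and 1 and 2 peaks of tagged TWIST2. The region chr5:127503801-127514381, 29447 bp from a kept region, had 9299 and 10408 bp, with 2 and 3 MYOD peaks in KD and none in control. Closer to kept regions were chr11:16112537-16123305 (9729 and 9944 bp, at 6421 bp) and chr10:33525601-33533910 (8310 and 7220 bp, at 13179 bp), both also with MYOD peaks in the KD libraries only. Of the 10 regions, 6 held MYOD peaks in both KD libraries and neither control, 2 held no MYOD peak, and 5 held a Ty1 peak in both libraries. Over all KD-only regions, whose median length was 1474 bp, 53.6% and 52.5% held a MYOD peak in the KD libraries. In the control libraries the shares were 18.2% and 18.3%. A Ty1 peak of both libraries was present in 32.8% of all KD-only regions. The 2 of the 10 without MYOD, chr20:43641122-43649464 (7748 and 7356 bp) and chr9:12788476-12795934 (7430 and 7156 bp), also lacked Ty1 and SMARCA4 peaks. Widths differed between the 2 KD libraries by far less than the regions' own size.

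The 10 widest control-only regions were smaller, with mean widths of 4176.5 to 6475.5 bp in the controls. The widest was chr14:23014481-23021050, with 6544 and 6407 bp in the controls. The second, chr20:59836863-59843191, had 5960 and 6329 bp. Both kept MYOD peaks after knockdown, 2 and 1 in the first and 1 and 1 in the second. In chr10:2340609-2346376 (5577 and 5768 bp in the controls) the controls had 2 and 1 MYOD peaks and the KD libraries none, and in chrX:131991558-131996503 (4937 and 4946 bp) 1 each against none. Of the 10 regions, 5 had MYOD peaks in all 4 MYOD libraries and 2 had them in both controls only. Over all control-only regions 48.6% and 49.3% held a MYOD peak in the controls and 34.5% and 32.5% in KD. The most isolated of the 10, chr7:131578743-131583259 (4517 and 3871 bp), lay 336608 bp from a kept region.

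Kept regions changed width in both directions, and by more than the replicates differed. The log2 width difference had an SD of 0.30 between the controls, 0.23 between the KD libraries and 0.62 between the group means, across 27442 regions. With limma on log2 width and Benjamini-Hochberg adjusted p under 0.05, 6196 regions were wider (22.6% of those tested) and 3535 narrower (12.9%) after knockdown. The median fold was 1.62 for regions called wider and 0.651 for regions called narrower, and 1926 regions at least doubled while 759 fell to 0.5 of their width or less. In 45.4% of kept regions both KD widths exceeded both control widths, and in 29.8% both were below.

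The balance between wider and narrower regions rests on scale. The median kept region was 1.05-fold wider in KD, a log2 shift of 0.07. With each library's median log2 width subtracted, 4796 regions were wider and 5496 narrower, so wider regions made up 46.6% of the calls instead of 63.7%. Calls shared by both fits were 4781 wider (17.4%) and 3534 narrower (12.9%). The number of calls also changed with the libraries used. With either KD library left out no region passed the adjusted threshold, although every region called in the full fit kept its direction. Leaving out control replicate 1 or 2 gave 5163 and 4561 wider and 1795 and 2039 narrower regions.

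**Figure D3:**
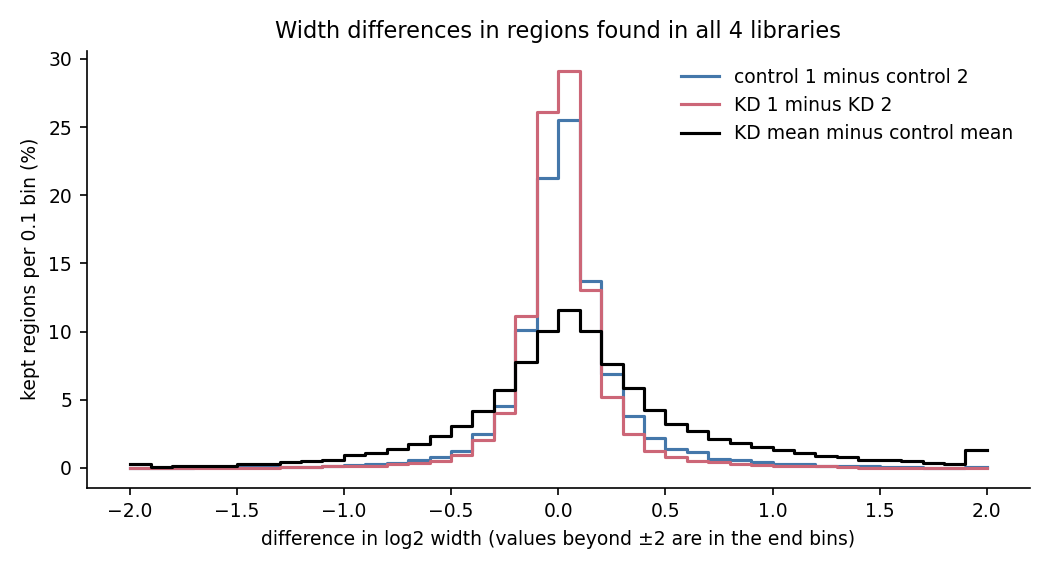
Share of the 27442 kept regions (y axis, % per bin of 0.1) by difference in log2 width (x axis) between both controls, between both KD libraries and between group means. The group difference (SD 0.62) spreads more widely on both sides of 0 than the replicate differences (SD 0.30 and 0.23).

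The shares of kept regions called wider and called narrower were both higher among wide domains. Whether wide domains grew or shrank more often rests on scale. Without centring, 27.4% of kept regions of 5000 to under 10000 bp were wider and 21.0% narrower, and of those of 10000 bp or more 27.3% and 23.4%. In both fits the split was otherwise. By mean width over all 4 libraries, 11.3% of kept regions under 1000 bp were then wider and 10.4% narrower, and of those of 1000 to under 2000 bp 15.4% and 10.7%. At 2000 to under 5000 bp the shares were 18.9% and 12.9%, at 5000 to under 10000 bp 20.2% and 21.0%, and at 10000 bp or more 20.2% and 23.4%. The median fold was 1.06 at 2000 to under 5000 bp and 0.999 at 10000 bp or more.

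The 10 called kept regions with the largest rise in log2 width, a scale that favours low starting values, were narrow in the controls. At chr4:113924642-113936017 the peaks were 917 and 632 bp wide in control and 11367 and 10980 bp in KD. The log2 change was 3.88 (SE 0.20, adjusted p = 0.00254 by limma), and the MYOD libraries had 1 and 1 peaks there in control and 2 and 2 in KD. At chr7:85309850-85317678 both controls had 501 bp and the KD libraries 7361 and 7280 bp. The region chr6:113248186-113255838 went from 501 bp in both controls to 7407 and 7025 bp, and chr11:27413097-27420974 from 501 and 626 bp to 7878 and 7769 bp. A width of 501 bp is the narrowest in 3 of the 4 lists, so a fold against it has the peak caller's smallest peak as its base. Others of the 10 were chr9:128282988-128290137 (501 and 501 bp to 7150 and 6062 bp), chr3:28688734-28699025 (907 and 633 bp to 9626 and 9483 bp) and chr1:70554050-70560351 (501 and 501 bp to 6302 and 6015 bp). Over the 10 regions, picked for their large change, the fold ran from 11.0 to 14.7 and the groups did not overlap. In 45.4% of all kept regions both KD widths likewise exceeded both control widths. MYOD peaks in these 10 regions summed to 5 and 7 in the control and 13 and 14 in the KD libraries. Over all kept regions called wider the ratio of MYOD peaks, KD over control, was 1.02. A Ty1 peak of both libraries lay in 9 of the 10, against 64.7% of all kept regions called wider. That class had a median length of 3321 bp, and a longer region meets a peak more easily.

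The 10 called kept regions with the largest fall in log2 width fell to or near the smallest peaks of the lists. That scale favours low end values, and some broad domains described below lost more bases. At chr11:69452936-69458450 the controls had 5400 and 5301 bp and both KD libraries 501 bp, a log2 change of -3.42 (SE 0.09, adjusted p = 0.00209 by limma), and no MYOD peak lay there in any library. At chr2:97860331-97875167 the controls had 14837 and 12439 bp and the KD libraries 1783 and 501 bp. The region chr3:177547741-177553951 went from 6211 and 3639 bp to 501 bp in both KD libraries, and chr11:125979494-125987413 from 6829 and 7481 bp to 501 and 1368 bp. In the latter the single MYOD peak of each control had no counterpart in KD. The region chr7:5714915-5720307 (5393 and 5256 bp against 501 and 763 bp) kept 1 MYOD peak in all 4 MYOD libraries, as did chr1:2804754-2808925 (4127 and 3711 bp against 501 bp in both KD libraries). Over the 10 regions MYOD peaks summed to 13 and 8 in control and 7 and 5 in KD, and the adjusted p by limma ran from 0.00209 to 0.018. Over all kept regions called narrower the ratio of MYOD peaks, KD over control, was 0.865.

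At some kept regions growth went with the joining of neighbouring peaks, and shrinkage with the breaking up of a domain, but 24962 of the kept regions had 1 peak in every library. In 319 kept regions both controls had at least 2 peaks and both KD libraries 1, and 275 of these were called wider and 3 narrower. The reverse, 1 peak in both controls and at least 2 in both KD libraries, was found in 443 regions, of which 350 were called narrower and 3 wider. Splitting was thus seen at more regions than joining. Of all kept regions, 22.6% were called wider and 12.9% narrower. Peak number and summed width come from the same peak edges: a peak that joins others takes in the bases between them, and splitting leaves them out. That joined regions were mostly called wider and split ones narrower is therefore in part built in.

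The number of broad domains overlapped between the groups, but they were in part other domains. A peak of at least 10000 bp was present in all 4 libraries at 196 regions, in both KD libraries only at 156 and in both controls only at 132. The largest class, 257 regions, had such a peak in another pattern, in which the libraries of at least 1 group differed from each other. At the 156 regions broad only in KD the median widest peak was 6240 and 6293 bp in the controls and 12094.5 and 12014.5 bp in KD. At the 132 regions broad only in controls it was 12879.5 and 12616.5 bp in the controls and 6036 and 5659.5 bp in KD. The cut of 10000 bp that defines both classes sets the groups apart in these medians. All 132 were still marked in all 4 libraries, as were 153 of the 156. These shares are near that of all merged regions of 10000 bp or more, of which 784 of 791 (99.1%) were kept.

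Single broad domains, chosen after their values were seen as the widest of their class, show both courses. At chr3:79647194-79675364 the controls had 3 and 4 peaks that summed to 9277 and 10949 bp. The KD libraries had 1 and 2 peaks of 28171 and 26469 bp in sum. At chr8:109435369-109458462, 4 and 5 control peaks (7961 and 11640 bp) stood against 1 peak in each KD library (22877 and 23035 bp), and at chr8:16594021-16615618, 3 peaks in each control (8978 and 9310 bp) against 1 (20960 and 21009 bp). In the other direction, chr6:26019571-26059363 was covered over 39793 and 38503 bp by 1 and 2 control peaks and over 17953 and 17308 bp by 6 peaks in each KD library. At chr5:158966954-158992101 the controls had 25148 and 22042 bp and the KD libraries 4 peaks of 6620 and 6218 bp in sum. At chr16:27232008-27257559 a peak of 25552 and 25110 bp in the controls was 4 peaks in each KD library (14254 and 14891 bp). A domain that changed little was chr5:97619454-97659005, with 37376, 37828, 38641 and 37293 bp in control 1, control 2, KD 1 and KD 2. At chr15:33375474-33426189, which held the widest peak of both control lists, 1 control peak of 50446 and 50155 bp was 4 and 5 KD peaks of 44454 and 42593 bp in sum.

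**Figure D4:**
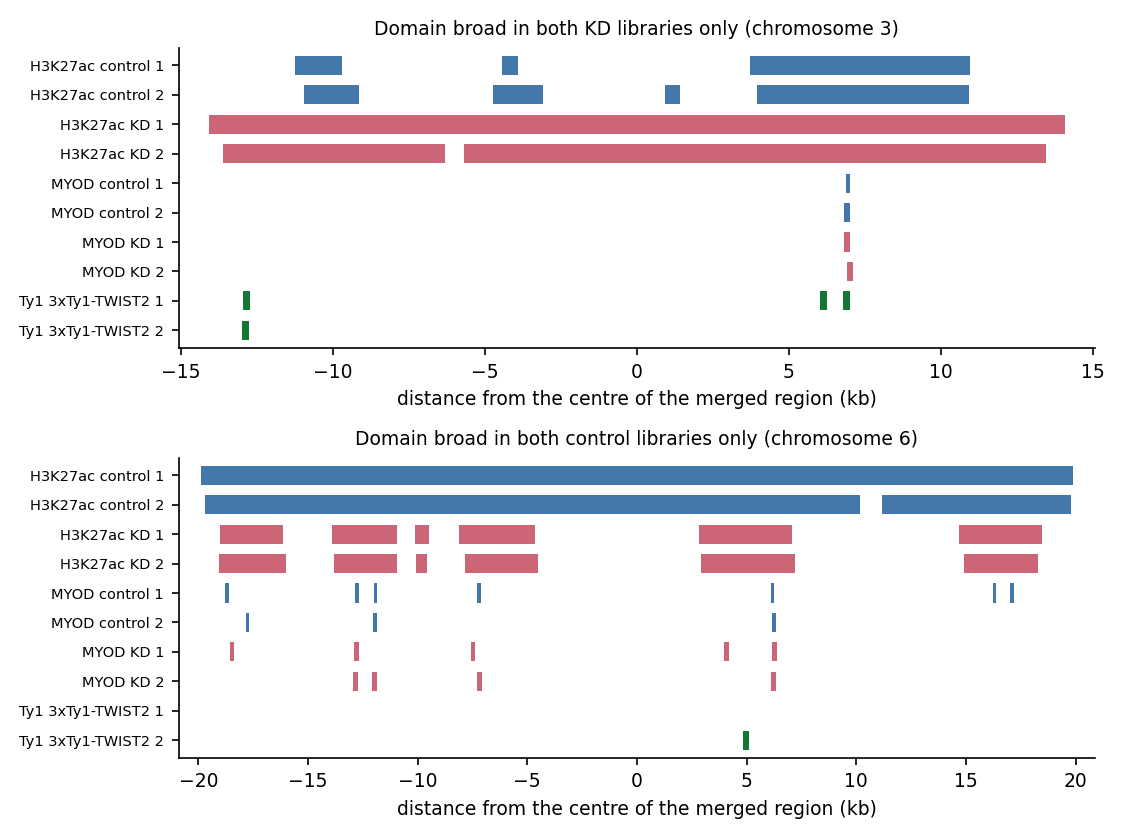
Peaks of each library (rows) by distance in kb from the centre of the merged region (x axis), at the domain broad in KD only on chromosome 3 and the domain broad in controls only on chromosome 6. The 3 and 4 control peaks of the first are 1 and 2 peaks in KD, and the 1 and 2 control peaks of the second are 6 peaks in each KD library.

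Across fixed windows of 100 kb, gains were most frequent where the mean coverage over all 4 libraries was low. Covered bases plus a pseudocount of 1000 bp were compared on the log2 scale with limma in 15405 windows marked in at least 2 libraries. After knockdown 7415 windows had more covered bases (48.1%) and 1654 fewer (10.7%). Of these, 5704 of the gains were also marked in a control library and 1462 of the losses in a KD library. The others entered through 1 group alone, which fixed their direction in advance. The median window had a log2 change of 0.31, so the balance again rests on scale: with each library's median subtracted, 4639 windows had more and 5253 fewer, and 46.9% of the calls were gains instead of 81.8%. Calls shared by both fits were 4630 (30.1%) and 1654 (10.7%). Leaving out KD replicate 1 or 2 lowered the calls to 2241 and 2570 windows with more and 585 and 598 with fewer covered bases, and leaving out control replicate 1 to 940 with fewer.

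Windows were split by their mean covered bases over all 4 libraries. In the 3988 windows with under 2000 bp, the controls covered 2.67 and 2.39 Mb in sum and the KD libraries 6.03 and 5.75 Mb, a ratio of 2.33. The ratio was 1.53 at 2000 to under 5000 bp, 1.32 at 5000 to under 10000 bp and 1.16 at 10000 to under 20000 bp. In the 625 windows with 20000 bp or more it was 1.03, from 16.7 and 16.1 Mb in control and 17.1 and 16.8 Mb in KD. The share of windows with a gain in both fits fell along this order from 40.2% to 14.6%, and the share with a loss was 7.70% in the sparsest and 30.1% in the densest class. In the sparsest windows 1 peak is a large part of the total. Windows could also enter through 1 group alone, 1748 of them through both KD libraries and 195 through both controls. Their mean takes in the 0 bp of the other group, which places them lower in this order. The parts of this filter, of the split by the mean and of depth were not tested.

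Many windows were marked in 1 group alone. In 1748 windows both KD libraries had a peak and neither control did, and in 195 windows the reverse held. Of the 10 windows with the largest log2 increase at a pseudocount of 1000 bp, a scale that favours low starting values, 9 were listed at 0 bp in both controls, and the KD libraries covered 10066 to 17272 bp of them. The window chr9:7300001-7400000 had 14124 and 12947 bp in KD, with 3 and 4 MYOD peaks in KD and 0 in control. The window chr13:33800001-33900000 had 13816 and 12688 bp, with 2 and 3 MYOD peaks in KD and 0 in control. The window chr21:16800001-16900000 had 12429 and 11022 bp and already held 2 and 1 MYOD peaks in control, against 8 and 5 in KD. All 10 windows held a MYOD peak in both KD libraries, and over the 10 the MYOD peaks summed to 7 and 5 in control and 32 and 38 in KD. Over all 4630 windows with a gain in both fits the difference was smaller, with 1.91 and 1.87 MYOD peaks per window in control and 3.04 and 2.80 in KD, a ratio of 1.55, against 1.03 in windows without a call.

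Among the windows with the largest decrease, chr10:2300001-2400000 had 5577 and 5768 bp in control and was listed at 0 in KD. The window chr22:23200001-23300000 went from 15920 and 16984 bp to 1340 and 3245 bp, a log2 change of -2.47 on the scale with the pseudocount (SE 0.34, adjusted p = 0.0103 by limma). The window chr1:203100001-203200000 went from 10783 and 9717 bp to 2589 and 769 bp. MYOD peaks over the 10 windows summed to 23 and 27 in control and 17 and 11 in KD. Over all 1654 windows with a loss they were 4.27 and 4.16 per window in control and 4.05 and 3.70 in KD, a ratio of 0.920.

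Gained windows lay next to each other. Of windows adjacent to one with a gain in both fits, 43.1% were themselves gains, against 30.1% of all windows tested, and for losses the shares were 27.9% and 10.7%. Adjacent windows can share a domain across their border. The longest runs of gains had 11 windows and the longest runs of losses 6. In chr8:100000001-101100000 the covered bases were 26193 and 22344 in control and 133656 and 133070 in KD, a ratio of 5.50, with 32 KD-only and 0 control-only regions. MYOD peaks in this run numbered 10 and 13 in control and 28 and 24 in KD. In chr21:27700001-28800000 the mark covered 35264 and 33666 bp in control and 95528 and 95995 bp in KD, and in chr6:112200001-113300000, 64494 and 61279 bp and 150478 and 141125 bp. The run chr4:169400001-170400000 (46092 and 47196 bp against 157695 and 152159 bp) held 29 KD-only regions. The run chr11:103300001-104200000 started from little, with 4172 and 4330 bp in control and 30873 and 30325 bp in KD. The runs chr4:113700001-114600000 and chr6:112200001-113300000 hold 2 of the kept regions with the largest rise in log2 width, described above.

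Runs of loss were shallower. In chr19:50800001-51400000 the covered bases were 52772 and 50867 in control and 37994 and 38685 in KD, a ratio of 0.740. In chr19:800001-1400000 they were 140752 and 136018 against 110392 and 113123, and 6 control-only and 0 KD-only regions lay there. The run chr2:45100001-45600000 went from 81914 and 76202 bp to 53183 and 51634 bp and held 1 control-only region. The run chr11:1700001-2200000 went from 77631 and 74880 bp to 52494 and 52791 bp.

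Chromosomes differed in this balance. Among chromosomes 1 to 22 and X, the ratio of covered bases was highest on chromosome 4 (3.78 and 3.63 Mb in control, 5.71 and 5.54 Mb in KD, ratio 1.52) and chromosome 13 (1.87 and 1.83 Mb against 2.83 and 2.76 Mb, ratio 1.51). Chromosomes 18, 8 and 21 followed with ratios of 1.44, 1.43 and 1.42. At the other end were chromosomes 16 (1.07), 22 (1.06) and 17 (1.05), and chromosome 19, with 3.82 and 3.67 Mb in control and 3.62 and 3.64 Mb in KD, was the one chromosome with a ratio below 1 (0.970). On chromosome 13, 29.8% of merged regions were KD-only and 2.96% control-only, and on chromosome 19, 6.56% and 7.02%. Among kept regions on chromosome 13, 25.7% were wider in both fits and 9.76% narrower, and on chromosome 19 6.47% and 17.5%. The order of these shares was not that of the ratios: chromosome 4 had 24.9% wider, chromosome 18 had the lowest narrower share (8.30%) and chromosome 22 the highest (17.8%). The number of copies of each chromosome in RD cells was not considered here.

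**Figure D5:**
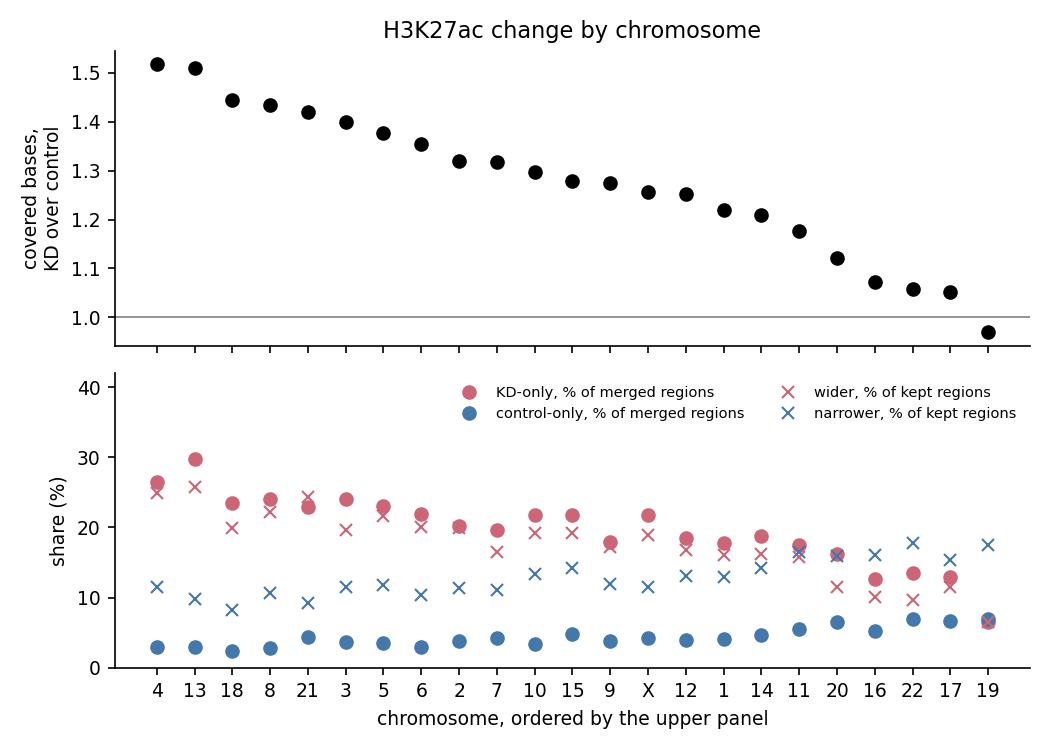
Covered bases, KD over control (upper y axis), and the shares of KD-only and control-only regions and of wider and narrower kept regions in both fits (lower y axis, %), for chromosomes 1 to 22 and X ordered by the upper panel. The ratio falls from 1.52 on chromosome 4 to 0.970 on chromosome 19, where narrower regions (17.5%) outnumber wider ones (6.47%).

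MYOD peak counts differed in the direction of H3K27ac where presence differed, and by less where kept regions were called wider. In KD-only regions the MYOD libraries had 2111 and 2086 peaks in control and 6233 and 6067 in KD, a ratio of 2.93, against 1.14 for the whole MYOD lists (44974 and 43381 against 52510 and 48003). In control-only regions there were 1265 and 1257 peaks in control and 867 and 796 in KD, a ratio of 0.659. In kept regions called wider the counts were 6129 and 5990 in control and 6374 and 5944 in KD, a ratio of 1.02, and the groups overlapped. In the 4781 called wider in both fits the counts were 4511 and 4417 in control and 4912 and 4626 in KD, a ratio of 1.07, and both KD libraries were above both controls. Narrower regions had 4124 and 3934 in control and 3624 and 3349 in KD (0.865), and regions without a call 18867 and 18186 against 16487 and 15340 (0.859). Narrower regions thus had nearly the same MYOD ratio as kept regions whose width was not called changed. The ratio of KD-only regions was 1.52 when the wider part of each H3K27ac list alone was used, and 2.43 and 2.56 without control replicates 1 and 2. MYOD peaks have 1 fixed width per list, 159 and 179 bp in control and 213 and 225 bp in KD. Counted by their midpoints alone, the ratio was 2.94 in KD-only and 0.658 in control-only regions.

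Peaks of tagged TWIST2, from 2 libraries of cells labelled 3xTy1-TWIST2, were found in kept regions of every kind. A Ty1 peak of both libraries was present in 64.7% of wider, 60.4% of narrower and 53.8% of other kept regions, in 32.8% of KD-only and in 27.1% of control-only regions. These classes differ in width, and a wide region meets a peak more easily. Among regions with a mean H3K27ac width of 2000 to under 4000 bp the shares were 66.3% (95% Wilson interval 64.6 to 68.0) in wider, 63.5% (61.0 to 65.9) in narrower and 57.0% (55.9 to 58.2) in other kept regions. In the same band they were 42.3% (39.9 to 44.7) in KD-only and 43.5% (36.1 to 51.2) in control-only regions, with overlapping intervals. Per 10 kb of merged region in that band, Ty1 replicate 1 had 2.40, 2.37 and 2.62 peaks in wider, narrower and other kept regions, and replicate 2 had 2.51, 2.46 and 2.65. The order of the kept regions therefore turned when length was taken into account, and wider and narrower regions stayed close to each other on both measures.

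SMARCA4, an ATPase of the SWI/SNF remodelling complexes, was mapped in the set labelled RD-2, and its control libraries differed in list length (11835 and 25013 peaks, against 12518 and 14676 in KD). KD-only H3K27ac regions held 408 and 951 SMARCA4 peaks in control and 971 and 1250 in KD, so that both KD libraries were above both controls, 1 of them by a small margin. In control-only regions there were 282 and 615 against 194 and 201. Kept regions called narrower had 1176 and 2359 against 970 and 936, and those called wider 1541 and 3325 against 1727 and 1742. In the wider regions the groups overlapped, and in the narrower ones the KD libraries were below both controls, as in kept regions without a call (5156 and 10557 against 4835 and 4649).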

How the data were processed

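Peaks were called in each library by the authors. Per the submitters' processing notes, the tools were HOMER 4.4, bedtools 2.29.2, Bowtie2 2.3.4.3 and SAMtools 0.1.19, with hg19 and GRCh37 as builds. The settings behind the H3K27ac, MYOD and Ty1 lists are not given in the sources used here. Per the file headers, SMARCA4 peaks were called in factor style against an input. Only positions were used. A GRCh38 gene start lay in an H3K27ac peak in 6.07 to 6.72% of 35116 cases, so GRCh38 positions were not used.

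Peaks on chromosomes 1 to 22, X and Y that overlapped by at least 1 bp were merged. Widths and covered bases (pseudocount 1000 bp, windows marked in at least 2 libraries) were compared with limma 3.58.1 in R 4.3.3, without a replicate block. Python 3.11.15, numpy 2.4.6, pandas 2.3.3, scipy 1.17.1 and matplotlib 3.10.9 did the rest. The merge and the fits were tested on simulated data. Named regions and windows were the 10 widest KD-only and control-only regions and the 10 called with the largest change in each direction. Members, lists and rules were chosen with earlier results of these data known. The planned gene-locus fits, gene lists and marker lists were not analysed here. The 10 input libraries were not used.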

Additional observations from a re-analysis of the deposited data

How the results depend on the processing

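The direction of the balance between KD-only and control-only regions held in every alternative run, but its size did not. KD-only regions numbered 6080 with the wider part of each list and 5969 with equal numbers of peaks, and control-only regions 1464 and 5128. Merging across 500 bp, merging only at an overlap of 0.5 of the shorter peak (added after the data were seen) and requiring an overlap of 0.5 with the region left both counts within 1.5 times, the last by construction, since each peak lies inside its region. Leaving out 1 library gave 12312 to 15043 KD-only and 2888 to 4549 control-only regions, 0 to 5163 wider and 0 to 2039 narrower kept regions, and 2241 to 6736 windows with more and 585 to 1157 with fewer covered bases. In these fits the lone library is assumed to vary like the other group. With medians subtracted, 5496 kept regions were narrower, and 4639 windows had more and 5253 fewer covered bases. Calls of at least 1.5-fold (added after the data were seen) were 3668 wider and 1902 narrower regions and 687 windows with fewer bases. Windows of 500 kb, which are fewer, gave 2793 and 452 calls. The excess of broad domains in KD, 11.5 per library, became -17 at a threshold of 15000 bp and ran from -8 to 31 when 1 library was left out. With the replicate number as a block, 5066 regions were wider and 2741 narrower, and 6867 windows had more and 1448 fewer bases. No label says whether the replicate numbers pair the libraries. The replicate differences of the 2 groups in log2 width had a Pearson r of -0.00057 across kept regions. That value shows no shared replicate effect on width, but it cannot tell whether libraries were prepared in pairs. Of the named kept regions, 20 of 80 values over the alternatives lost the call among wider and 24 of 80 among narrower ones, and none reversed. The named regions were picked for their large change, which left little room for a reversal. The gene-locus fits were not run. Unknown depth limits every count above.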

Other observations

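Regions found in 3 of the 4 libraries were less frequent than either KD-only or kept regions. A peak was missing only in control replicate 2 at 1938 regions (3.47%), only in control replicate 1 at 1225 (2.19%), only in KD replicate 2 at 695 (1.24%) and only in KD replicate 1 at 529 (0.946%). Single-library regions numbered 3818 and 2809 in the KD and 2098 and 1133 in the control libraries.

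Peaks with no peak of the other group became rarer with width in each list, and a wide peak meets another peak more easily. At under 1000 bp they made up 64.7% and 62.7% of the KD lists and 36.7% and 31.9% of the control lists. At 2000 to under 5000 bp the shares were 10.6% and 9.96% in KD and 1.56% and 1.24% in control. Of peaks of 10000 bp or more, 3 in each KD list and 0 in each control list stood alone.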
